A study of Mus musculus with 4 samples.

Results

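The expression of 10 genes of the NRF2 and glutathione antioxidant response was described in RNA-Seq of mouse group 2 innate lymphoid cells (ILC2s) treated with deoxycholic acid (DCA), a secondary bile acid made by gut bacteria. The members were chosen by name, with earlier results of these data known, as Nfe2l2, Hmox1, Nqo1, Gclc, Gclm, Txnrd1, Srxn1, Slc7a11, Gsr and Chac1. All 10 were found among the 27179 gene rows of the count table, and all 10 were among the 11184 genes tested, those averaging 1 or more in CPM (counts scaled to the size of the library, with TMM factors). Chac1 reached that mean only through its DCA libraries, and Slc7a11 only through vehicle replicate 1.

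The ILC2s were sorted from the large intestine of wild-type C57BL/6 mice (aged 6 to 8 weeks where an age is given) as CD127+ KLRG1+ cells after exclusion of lineage-positive cells, with CD11b, CD11c, Ly6G and CD16/32 in the lineage mix, and cultured for 5 days with the alarmins IL-33 and IL-25 and the growth cytokines IL-7 and IL-2, each at 10 ng/mL. They then received vehicle or DCA at 100 μM. The deposited design gives 16 h of exposure and the methods give 24 h. All cells in both groups therefore carried the same genotype and the same cytokine exposure, and the comparison asked what DCA changed in activated ILC2s. There were 2 libraries for each treatment, and no label ties them to separate mice or cultures, so the p-values measure the spread between these libraries, which may be technical.

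NRF2, encoded by Nfe2l2, is a transcription factor that the adaptor KEAP1 holds in the cytosol and delivers for degradation. When reactive molecules modify KEAP1, NRF2 accumulates without needing new transcription, pairs with a small MAF protein and binds antioxidant response elements at genes for glutathione synthesis, thioredoxin recycling, quinone reduction and heme breakdown. CHAC1 works against this arm, since it degrades glutathione, and its gene is a target of ATF4, a transcription factor of the integrated stress response.

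Total counts were 26564059 to 35838342 in 3 libraries and 244165712 in DCA replicate 2, which stood apart in depth, so member values are also given without it. All 10 ILC2 markers were measured. Klrg1 and Il1rl1 were lower in both DCA libraries (log2 fold changes -0.74 and -0.60), Il2ra, Il7r and Il5 were higher in both (0.47, 0.53 and 0.43), and the other 5, Gata3 among them, overlapped. Of 38 markers of other cell types, 29 stayed under 1 CPM in every library. The others were Cd79b, Cd3g, Cd68, Epcam, Krt18, Mcpt8, Cd3e, Cd5 and Il17a. Cd79b was the highest of them, at 55.1 and 47.2 CPM in vehicle and 37.4 and 44.5 CPM in DCA. Cd3g was at 11.9 and 25.5 CPM in vehicle and 21.3 and 10.5 CPM in DCA. In bulk RNA, fewer cells of a type and less RNA per cell cannot be told apart.

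Of the 10 genes, 6 had both DCA libraries above both vehicle libraries, namely Hmox1, Nqo1, Gclc, Gclm, Txnrd1 and Chac1, and 0 were lower. For Chac1 the filter on low values fixed that direction. Among all genes tested, 18.6% were higher in this way and 14.7% lower. The median log2 fold change (DCA minus vehicle) of the 10 genes was 0.63, against 0.008 for all genes. With edgeR's quasi-likelihood test, 3 genes (Hmox1, Nqo1 and Chac1) had an unadjusted p under 0.05 and were higher with DCA, where 2.54% of all genes did so and 1.73% were lower with such a p. After Benjamini-Hochberg adjustment over all 11184 genes, 0 of the 10 and 0% of all genes passed 0.05, and each of the 10 had an adjusted p of 0.999. DESeq2, the tool of the original analysis, gave adjusted p under 0.05 for the same 3 members, at 0.00235 for Hmox1, 0.0108 for Nqo1 and 0.0173 for Chac1, where 1.19% of the genes with an adjusted p passed in the higher direction. Summed over the 10 genes, the level was 1425 and 1212 CPM in vehicle and 1829 and 1888 CPM in DCA. This sum is weighted toward the most abundant genes, and Nfe2l2, Gsr and Slc7a11 had negative log2 fold changes.

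**Figure D1:**
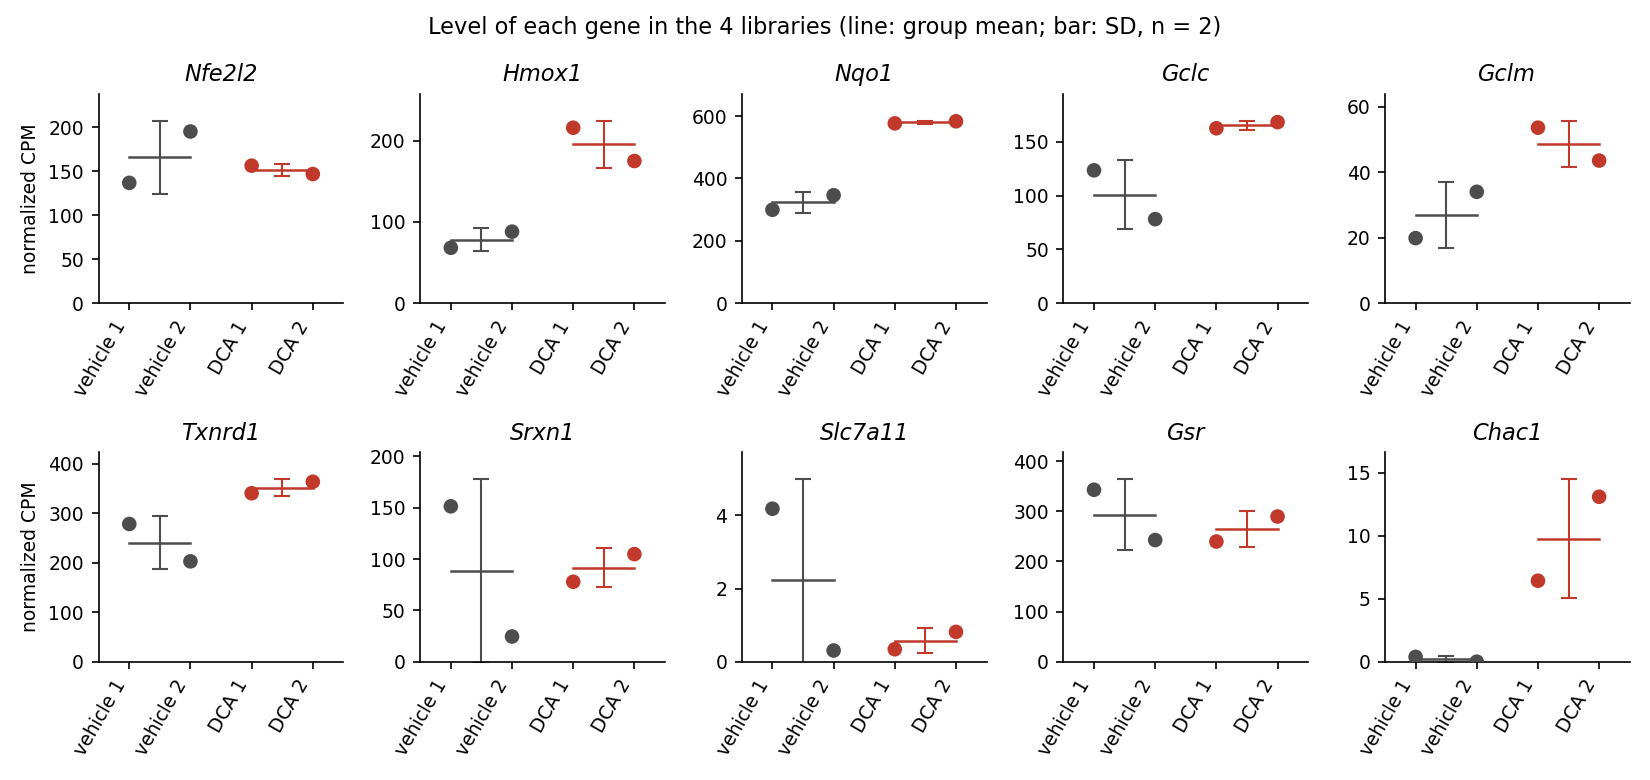
Normalized CPM of each of the 10 genes in the 2 vehicle libraries (grey) and the 2 DCA libraries (red), with a separate linear axis for each gene; lines are group means and bars are SDs (n = 2), with any part of a bar below 0 not drawn. Both DCA points lie above both vehicle points for Hmox1, Nqo1, Gclc, Gclm, Txnrd1 and Chac1, and the vehicle points of Srxn1 and Slc7a11 lie far apart.

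Promoters running from 250 bases before to 50 after a RefSeq start site (GRCm38.p6, the mm10 build) were matched for 7 of the 10 genes, all but Hmox1, Gclc and Gsr, and are shown where they hold an element that NRF2 or ATF4 is known to bind. The antioxidant response element core TGACNNNGC, sought on both strands, was in promoters of 4 of these 7 genes, Nfe2l2, Gclm, Txnrd1 and Srxn1, against 14.0% of 27025 genes. Each 30-base window below is written 5′ to 3′ on the strand of its gene, with the core in capitals, so a core on the opposite strand reads as its reverse complement. A match describes these letters and does not show binding.
Nfe2l2 (chr2:75704884-75704913, minus strand, core 240 bases before the start): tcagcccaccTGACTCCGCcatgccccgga
Gclm (chr3:122245413-122245442, plus strand, core 134 bases before the start): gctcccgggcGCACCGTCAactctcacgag
Txnrd1 (chr10:82859104-82859133, plus strand, core 92 bases before one of its starts): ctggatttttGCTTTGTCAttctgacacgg
Srxn1 (chr2:152105542-152105571, plus strand, core 29 bases after the start): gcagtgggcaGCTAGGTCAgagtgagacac

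Nfe2l2 itself did not separate the treatments. The gene (chromosome 2, 75675513 to 75704663) stood at 137 and 195 CPM in vehicle and 156 and 147 CPM in DCA. Both DCA values lay between the vehicle values. The log2 fold change fitted by edgeR was -0.13 (adjusted p = 0.999). The difference of the mean log2(CPM + 1) values, the scale of every SE and 95% interval given for a gene here, was -0.11 (SE 0.26, n = 2 per treatment, limma interval -0.72 to 0.51). A change of the transcript within that interval was not detectable here, and RNA-Seq did not measure NRF2 protein, the level at which KEAP1 acts.

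Hmox1 (chromosome 8, 75093618 to 75100593) encodes heme oxygenase 1, which cleaves heme to biliverdin, iron and carbon monoxide. Its level was 68.2 and 88.1 CPM in vehicle and 216 and 175 CPM in DCA. The lower DCA library stood 1.99-fold above the higher vehicle library. The means were 78.2 ± 14.1 and 196 ± 29.0 CPM (SD, n = 2), a 2.50-fold difference, with a log2 fold change of 1.32 (adjusted p = 0.999 with edgeR). On the log2(CPM + 1) scale the difference was also 1.32 (SE 0.24, 95% interval 0.68 to 1.95). Of all genes tested, 6.97% had as high a log2 fold change and 0.125% as small a p. Without DCA replicate 2 the log2 fold change was 1.47. Macrophage and monocyte markers, whose cells the lineage mix was set to remove, summed to 24.65 and 23.97 CPM in vehicle but 7.30 and 10.2 CPM in DCA, nearly all of it Cd68. Csf1r, Fcgr1 and C1qa were at 0 in every library.

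Nqo1 (chromosome 8, 107388225 to 107403205) encodes a quinone reductase that is a textbook NRF2 target. It was measured at 300 and 346 CPM in vehicle and 577 and 583 CPM in DCA. The DCA libraries differed by 1.01-fold from each other and the lower of them was 1.67-fold above the higher vehicle library. The means of 323 ± 32.9 and 580 ± 4.75 CPM (SD, n = 2) gave a 1.80-fold difference and a log2 fold change of 0.84 (adjusted p = 0.999 with edgeR). The log2(CPM + 1) difference was 0.85 (SE 0.10, 95% interval 0.35 to 1.34). As high a log2 fold change was found in 11.9% of all genes, and as small a p in 0.313%. Without DCA replicate 2 the value was 0.84.

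Gclc and Gclm encode the catalytic and modifier subunits of glutamate-cysteine ligase, the rate-limiting enzyme of glutathione synthesis. Gclc (chromosome 9, 77754535 to 77794489) was at 123 and 78.1 CPM in vehicle and 162 and 168 CPM in DCA. Gclm (chromosome 3, 122245487 to 122267215) was at 19.9 and 34.05 CPM in vehicle and 53.6 and 43.6 CPM in DCA. For both subunits the DCA libraries stood above the vehicle libraries, though the vehicle libraries differed in opposite directions, with replicate 1 the higher for Gclc and replicate 2 for Gclm. For Gclc the log2 fold change was 0.71 and the log2(CPM + 1) difference 0.75 (SE 0.33, 95% interval 0.07 to 1.42). For Gclm they were 0.85 and 0.87 (SE 0.40, 95% interval -0.11 to 1.85). Neither passed the unadjusted threshold with edgeR. The exons of Gclm share 296 of 6291 bases with Gm17494 on the opposite strand, and the library kit does not mark strand. They share 244 bases with the pseudogene Gm6061 on the same strand. Reads at both places are of uncertain origin.

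Txnrd1, Gsr and Srxn1 act in the reduction of thiols. Txnrd1 (chromosome 10, 82833951 to 82897724), the cytosolic thioredoxin reductase, was at 278 and 203 CPM in vehicle and 340 and 363 CPM in DCA. The DCA libraries were both higher, the closest pair by 1.22-fold, with a log2 fold change of 0.55 and a log2(CPM + 1) difference of 0.56 (SE 0.23, 95% interval 0.005 to 1.12). Gsr (chromosome 8, 33653238 to 33698162), which returns oxidized glutathione to its reduced form, was at 343 and 243 CPM in vehicle and 240 and 290 CPM in DCA. The groups overlapped for Gsr, with a log2 fold change of -0.15 and a log2(CPM + 1) difference of -0.13 (SE 0.28, 95% interval -0.72 to 0.46). Gsr therefore lacked the separation seen for Txnrd1, although the difference between the 2 genes was not tested.

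Srxn1 (chromosome 2, 152105524 to 152111376) encodes sulfiredoxin, which repairs overoxidized peroxiredoxins. Its vehicle libraries disagreed, at 151 and 24.5 CPM, and the DCA libraries lay between them at 77.9 and 105 CPM. The vehicle gap was 6.17-fold, and 6.31% of all genes tested had as large a gap between these 2 libraries. The log2 fold change was 0.05, while the log2(CPM + 1) difference was 0.55 (SE 1.31, 95% interval -1.05 to 2.15). The log2 fold change was -0.73 without vehicle replicate 2 and 1.87 without vehicle replicate 1, so the direction depended on which vehicle library was kept.

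Slc7a11 (chromosome 3, 50364936 to 50499087) encodes the cystine carrier xCT, which imports the cystine needed for glutathione. It stayed under 1 CPM in 3 of the 4 libraries, with 153 and 8 counts in vehicle and 11 and 196 counts in DCA, or 4.18 and 0.305 CPM and 0.340 and 0.814 CPM. The vehicle libraries differed by 13.7-fold and spanned both DCA libraries. The log2 fold change was -1.95 and the log2(CPM + 1) difference -0.74 (SE 1.02, 95% interval -3.06 to 1.58). Both rested on vehicle replicate 1, without which the gene fell under the 1 CPM minimum. Its partner chain in the carrier, Slc3a2, was at 203 and 256 CPM in vehicle and 232 and 265 CPM in DCA, with a log2 fold change of 0.12.

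Chac1 (chromosome 2, 119351242 to 119354326) encodes the cyclotransferase that splits glutathione, and it had the highest log2 fold change of the 10 genes. It had 14 and 0 counts in vehicle and 208 and 3154 counts in DCA, which is 0.383 and 0 CPM against 6.43 and 13.1 CPM. The 0 in vehicle replicate 2 allows up to 3 counts, or 0.115 CPM, and covers counting error only. The DCA libraries stood 16.8-fold and 34.3-fold above vehicle replicate 1. The fitted log2 fold change was 5.63 (adjusted p = 0.999 with edgeR), and on the log2(CPM + 1) scale the difference was 3.12 (SE 0.52, 95% interval 1.14 to 5.10). As high a log2 fold change was fitted for 1.83% of all genes, but the filter on low values fixed the direction of Chac1. Without DCA replicate 2 it was 5.03, without vehicle replicate 2 it was 4.67, and without vehicle replicate 1, which leaves vehicle at 0, the fitted value of 12.9 is no bound. The related Chac2 overlapped between treatments, at 2.35 and 8.40 CPM in vehicle and 8.13 and 2.77 CPM in DCA.

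Chac1 and Slc7a11 were the 2 of the 7 matched genes with the ATF4 element core TGATGNAA, sought on both strands, in the promoter, against 4.51% of 27025 genes. Their 250 bases before the start are shown because both genes hold this element. The element is in capitals, and Slc7a11 holds it once on each strand, 66 and 47 bases before its start. The Slc7a11 start used here lies inside the annotated gene span, which reaches further upstream. In Chac1 the element lies 193 bases before the start.
Chac1 (chr2:119350992-119351241, plus strand): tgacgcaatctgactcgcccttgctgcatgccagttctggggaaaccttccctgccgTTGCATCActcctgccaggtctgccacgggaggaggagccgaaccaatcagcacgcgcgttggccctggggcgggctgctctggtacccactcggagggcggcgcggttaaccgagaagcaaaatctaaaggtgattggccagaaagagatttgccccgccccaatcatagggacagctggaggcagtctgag
Slc7a11 (chr3:50443614-50443863, minus strand): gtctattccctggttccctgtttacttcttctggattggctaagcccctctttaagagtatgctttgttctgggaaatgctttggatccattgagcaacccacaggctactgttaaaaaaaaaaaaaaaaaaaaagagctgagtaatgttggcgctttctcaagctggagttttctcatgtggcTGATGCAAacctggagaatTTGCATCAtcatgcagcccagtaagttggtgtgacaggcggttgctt
The elements are the same 8 letters in both promoters. Both DCA libraries were above vehicle for Chac1, a direction that the filter on low values fixed. The libraries overlapped for Slc7a11, of which only vehicle replicate 1 exceeded 1 CPM. Whether the element bears on either gene's values was not tested.

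**Figure D2:**
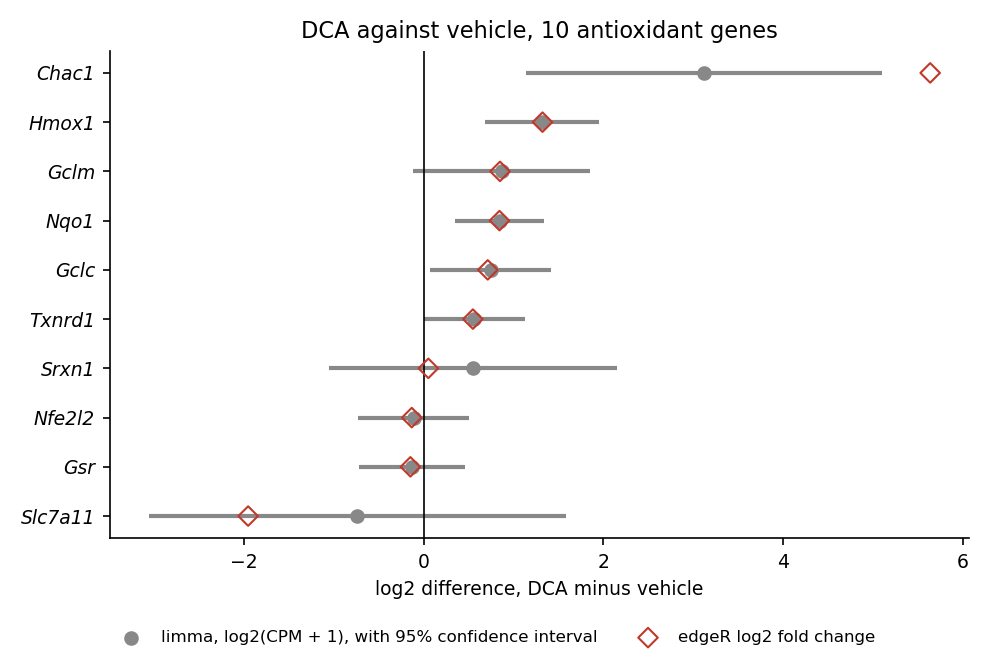
Difference between DCA and vehicle for the 10 genes on a log2 scale; red diamonds are edgeR log2 fold changes, and grey points with bars are limma differences on log2(CPM + 1) with 95% confidence intervals (n = 2 per treatment). The intervals of Hmox1, Nqo1, Gclc, Txnrd1 and Chac1 lie above 0, and those of the other 5 genes include 0. For Chac1 the filter on low values fixed that direction. The intervals are not adjusted for the number of genes. With this limma fit, 312 of 11184 genes were higher with an unadjusted p under 0.05, and 0 genes passed after adjustment. The 2 scales part for Chac1 (5.63 and 3.12), Slc7a11 (-1.95 and -0.74) and Srxn1 (0.05 and 0.55).

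Levels can be compared between genes only per transcript length. In mean CPM per kilobase of the longest transcript in vehicle, Nqo1 was the most abundant at 208, followed by Gsr at 110, Nfe2l2 at 67.0, Txnrd1 at 66.3, Hmox1 at 49.8, Srxn1 at 31.3, Gclc at 29.4, Gclm at 4.83, Slc7a11 at 0.243 and Chac1 at 0.117. The libraries of neighbours overlapped for each step from Nfe2l2 to Gclc and for Slc7a11 and Chac1, so those places are not distinguishable. With DCA, Nqo1 was at 373, Hmox1 at 125, Gsr at 99.0, Txnrd1 at 97.1, Nfe2l2 at 61.2, Gclc at 48.3, Srxn1 at 32.5, Gclm at 8.70, Chac1 at 5.97 and Slc7a11 at 0.0626. With these transcript lengths, only Gsr with Txnrd1, and Gclm with Chac1, overlapped as neighbours in DCA. Hmox1 was next after Nqo1 in DCA, while in vehicle its libraries overlapped those of both neighbours. Chac1, at 10 of 10 in vehicle, was at place 9 in DCA, so it remained a low transcript despite its fold change.

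**Figure D3:**
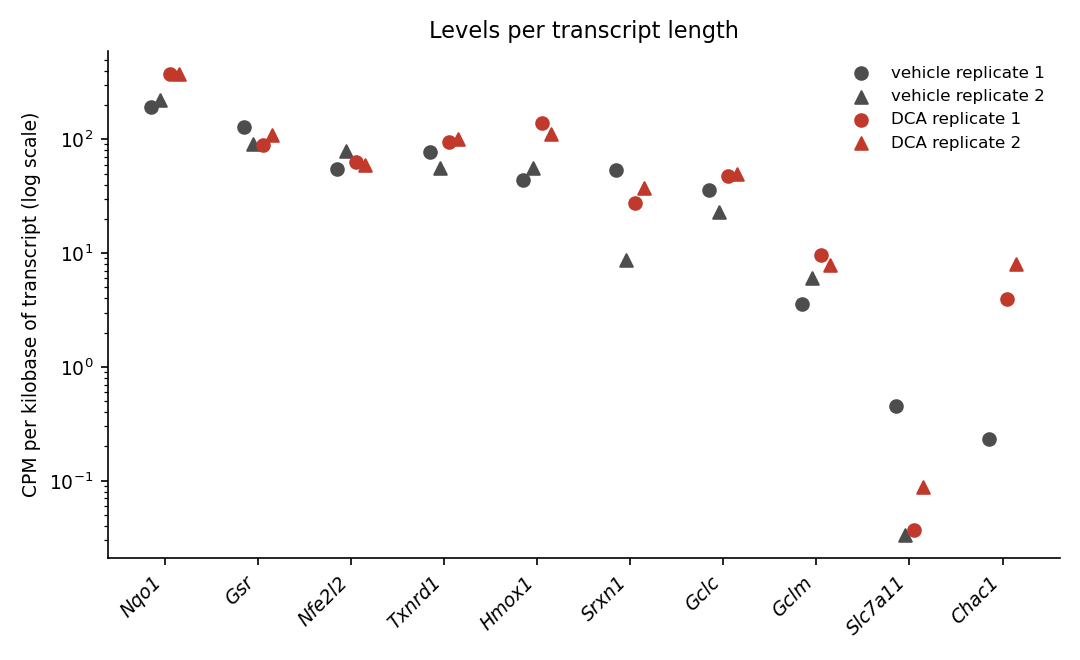
CPM per kilobase of transcript on a log axis for the 10 genes, ordered by their vehicle mean, in the 2 vehicle libraries (grey) and the 2 DCA libraries (red); Chac1 in vehicle replicate 2, at 0, is not drawn. Nqo1 is the most abundant gene in both treatments, and Slc7a11 and Chac1 are the lowest in vehicle at 0.243 and 0.117 on average.

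Count ratios of genes within a library do not depend on how libraries are scaled, and 11 pairs were formed, chosen with earlier results of these data known. Hmox1 per count of Hmox2, the constitutive heme oxygenase, was 0.708 and 0.934 in vehicle and 2.53 and 2.10 in DCA. Nqo1 per count of Nfe2l2 was 2.19 and 1.77 in vehicle and 3.69 and 3.98 in DCA. Both ratios were higher in both DCA libraries, which shows unequal change within each pair and not which gene moved. Txnrd1 per count of Gsr was 0.810 and 0.835 in vehicle and 1.42 and 1.25 in DCA. Txnrd1 per count of Txnrd2, its mitochondrial counterpart, went the other way, at 24.1 and 30.3 in vehicle and 18.3 and 20.0 in DCA. Gclc per count of Gclm overlapped, at 6.20 and 2.29 in vehicle and 3.03 and 3.86 in DCA. The subunit ratio therefore did not separate the treatments. Per count of Gss, glutathione synthetase, Gclc was at 4.16 and 2.70 in vehicle and 4.90 and 7.29 in DCA, and Gclm at 0.671 and 1.18 in vehicle and 1.62 and 1.89 in DCA.

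**Figure D4:**
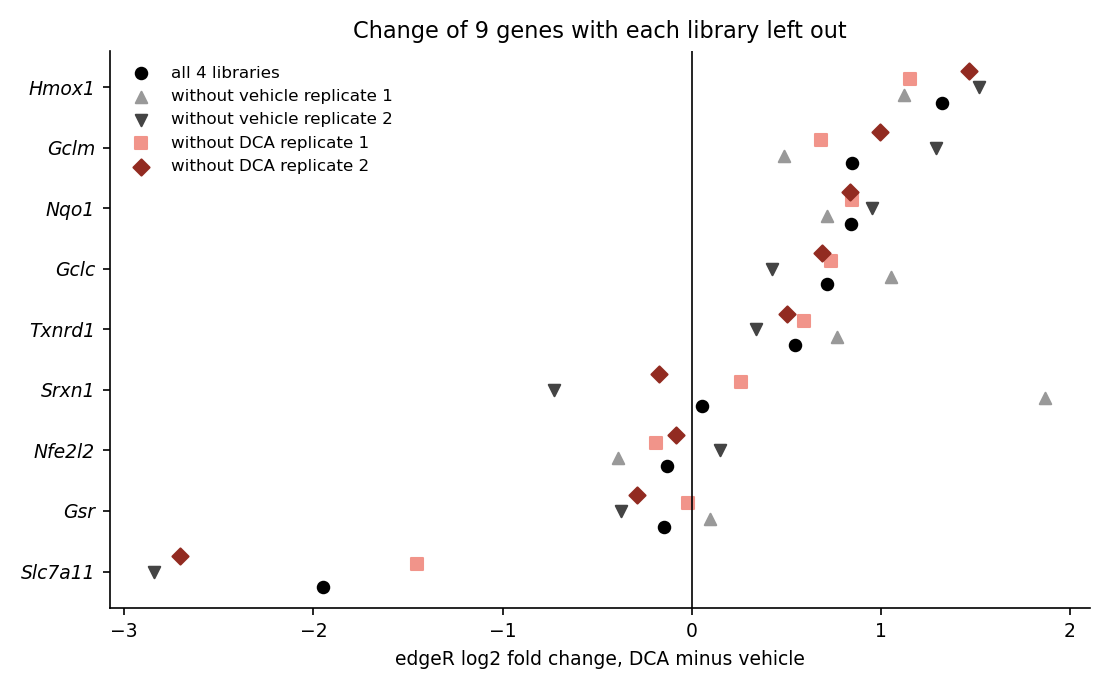
edgeR log2 fold changes of 9 of the 10 genes (Chac1 is off the scale) with all 4 libraries and with each library left out in turn. Hmox1, Gclm, Nqo1, Gclc and Txnrd1 stay above 0 in every fit, which the order of their libraries all but fixes. Srxn1 runs from -0.73 to 1.87, and Slc7a11 has no value without vehicle replicate 1.

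With any 1 library left out, the log2 fold change stayed above 0 for Hmox1 (1.12 to 1.52), Nqo1 (0.72 to 0.95) and Gclc (0.42 to 1.06). It also stayed above 0 for Gclm (0.49 to 1.29), Txnrd1 (0.34 to 0.77) and Chac1. For Chac1 the filter on low values fixed that direction. In these fits 1 treatment has a single library, which is assumed to vary like the other group, and the genes with an unadjusted p under 0.05 numbered from 106 of 11090 without DCA replicate 1 to 1497 of 11118 without vehicle replicate 1, so counts of such p-values do not measure stability. Vehicle replicate 2 was the library without which Gclc and Txnrd1 had their lowest values, and vehicle replicate 1 the one without which Hmox1, Nqo1 and Gclm had theirs. Without the deep DCA replicate 2, the log2 fold change was 0.69 for Gclc, 0.99 for Gclm and 0.50 for Txnrd1. It was -0.085 for Nfe2l2, -0.29 for Gsr, -0.18 for Srxn1 and -2.71 for Slc7a11, the genes whose groups overlap with all 4 libraries included.

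The rest of the pathway, 93 genes in 6 lists, was described by the same counts. Of the 81 tested, 24 (29.6%) were higher in both DCA libraries and 8 (9.88%) lower, against 18.6% and 14.7% of all genes, 5 and 1 had an unadjusted edgeR p under 0.05 in those directions, 0 passed the adjusted threshold, and the median log2 fold change was 0.13. The median was 0.16 for 9 NRF2 regulators, -0.34 for 9 genes of glutathione synthesis, transport and breakdown, 0.01 for 24 glutathione-using enzymes, 0.18 for 16 genes of the thioredoxin and peroxiredoxin system, 0.17 for 16 genes of NADPH, heme and iron handling, and 1.87 for 7 ATF4 and CHOP genes. The genes with an unadjusted edgeR p under 0.05 were Esd, Gstm1, Fth1, Ddit3 and Sesn2 on the higher side and Cul3 on the lower side. All had an adjusted p of 0.999. The filter fixed the direction of Sesn2 and Vldlr, which are among the 24 and passed the 1 CPM minimum only through DCA. Both also enter the median of 1.87.

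Among the 9 regulators, 2 (22.2%) were higher and 1 (11.1%) lower in both DCA libraries, near the 18.6% and 14.7% of all genes. Cul3, which encodes the scaffold of the ubiquitin ligase that KEAP1 recruits to NRF2, was at 80.0 and 98.0 CPM in vehicle and 40.7 and 50.9 CPM in DCA, with a log2 fold change of -0.96 (adjusted p = 0.999 with edgeR). Sqstm1, encoding the autophagy receptor p62 that can sequester KEAP1, was at 328 and 218 CPM in vehicle and 417 and 328 CPM in DCA, a log2 fold change of 0.45 with the closest libraries nearly equal. Nfe2l1, the NRF2 relative, was at 18.4 and 19.3 CPM in vehicle and 25.9 and 21.1 CPM in DCA, a log2 fold change of 0.32. Keap1 and Bach1, the repressors of NRF2 and of its target sites, overlapped between treatments. Keap1 was at 31.6 and 4.77 CPM in vehicle and 22.2 and 18.4 CPM in DCA, a vehicle spread in the same direction as that of Srxn1. Bach1 was at 4.37 and 2.40 CPM in vehicle and 10.2 and 3.37 CPM in DCA.

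Of the 9 other genes of glutathione synthesis, transport and breakdown, 0 were higher in both DCA libraries and 3 (33.3%) were lower. Of all genes, 18.6% were higher and 14.7% lower in this way, and 0 of the 9 had an unadjusted edgeR p under 0.05. Lap3, a leucine aminopeptidase that acts on cysteinylglycine, was at 101 and 155 CPM in vehicle and 67.5 and 93.9 CPM in DCA (log2 fold change -0.66). Ggt7, of the gamma-glutamyltransferase family, was at 20.99 and 11.3 CPM in vehicle and 8.23 and 4.11 CPM in DCA (log2 fold change -1.39). The groups lay close, and the nearest libraries of Lap3 were 93.9 CPM in DCA and 101 CPM in vehicle.

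Of the 24 glutathione-using enzymes, 7 (29.2%) were higher in both DCA libraries and 2 (8.33%) lower, against 18.6% and 14.7% of all genes. Esd, which encodes S-formylglutathione hydrolase, was at 343 and 537 CPM in vehicle and 821 and 1066 CPM in DCA, with a log2 fold change of 1.10. Gstm1, a glutathione S-transferase with close paralogs that may share its reads, was at 117 and 98.4 CPM in vehicle and 209 and 171 CPM in DCA (log2 fold change 0.82). The secreted peroxidase gene Gpx3 had a log2 fold change of -1.18 and Gsto1 of -0.32, with both DCA libraries lower.

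In the thioredoxin and peroxiredoxin system, 15 of 16 genes had a log2 fold change above 0, against 5672 of 11184 over all genes. Of the 16 genes, 5 (31.2%) were higher in both DCA libraries, against 18.6% of all genes. The libraries overlapped for 11, and 0 had an unadjusted edgeR p under 0.05. In the other lists, log2 fold changes were above 0 for 6 of 9 NRF2 regulators and 12 of 24 glutathione-using enzymes. The same held for 2 of 9 genes of glutathione synthesis, transport and breakdown. It held for 10 of 16 NADPH, heme and iron genes and 6 of 7 ATF4 and CHOP genes. Txnip, encoding an inhibitor of thioredoxin, was at 19.8 and 9.81 CPM in vehicle and 48.0 and 22.1 CPM in DCA (log2 fold change 1.24). Txnrd2 was at 11.5 and 6.68 CPM in vehicle and 18.6 and 18.2 CPM in DCA (log2 fold change 1.01). The reductases of both compartments, Txnrd1 and Txnrd2, were thus higher in both DCA libraries.

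Of the 16 NADPH, heme and iron genes tested, 6 (37.5%) were higher in both DCA libraries, 2 (12.5%) lower and 8 overlapped. Of all genes, 18.6% were higher and 14.7% lower in this way. Fth1, the ferritin heavy chain that stores the iron heme breakdown frees, was at 1547 and 2346 CPM in vehicle and 3123 and 3977 CPM in DCA, a log2 fold change of 0.87 (adjusted p = 0.999 with edgeR). The light chain gene Ftl1 had a log2 fold change of 0.27, and both ferritin genes have processed copies in the genome that may share reads. Hmox2 was slightly lower in both DCA libraries, at 96.4 and 94.3 CPM in vehicle and 85.6 and 83.4 CPM in DCA (log2 fold change -0.17). Cbr1, a carbonyl reductase, had a log2 fold change of -0.41. The biliverdin reductase genes Blvra and Blvrb, of the step after heme oxygenase, overlapped between treatments, with log2 fold changes of -0.19 and 0.06.

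**Figure D5:**
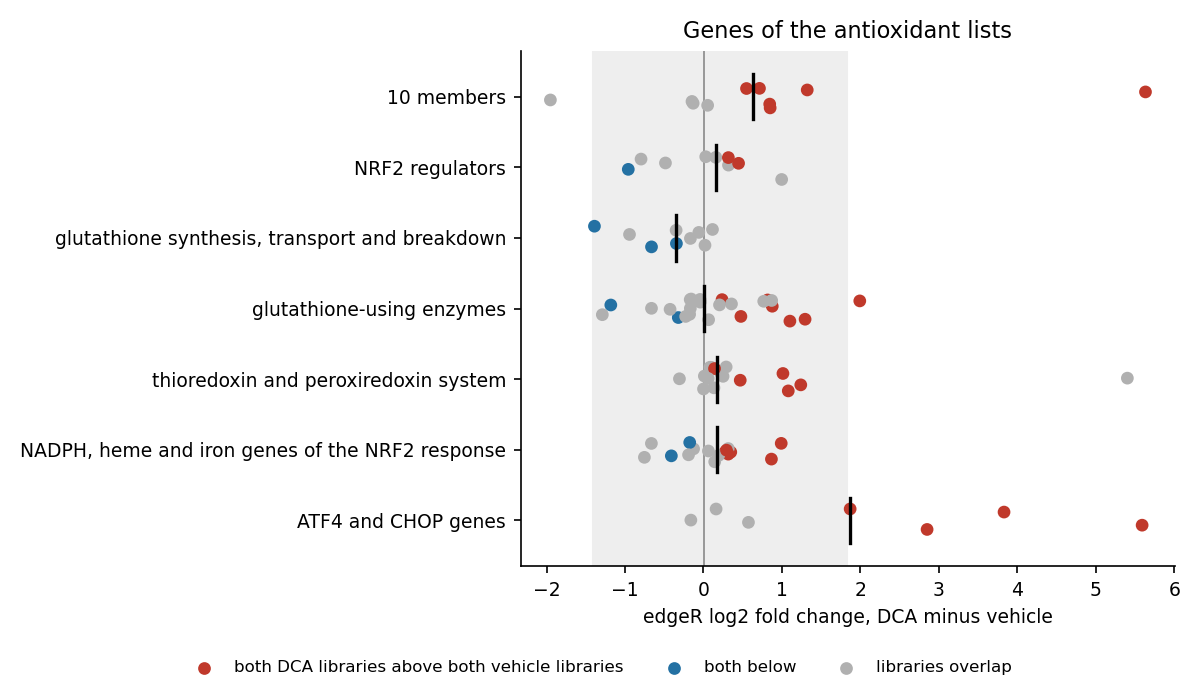
edgeR log2 fold changes of the 10 genes and of the tested genes of 6 related lists without them; red, blue and grey points are genes with both DCA libraries above, both below, or overlapping with the vehicle libraries, black ticks are list medians, and the shaded band spans the 5th to 95th percentile of all 11184 genes (-1.41 to 1.83). The medians are 0.63 for the 10 genes and between -0.34 and 1.87 for the lists. The filter on low values fixed the direction of Chac1, Sesn2, Vldlr, Txnrd3 and Slc7a11.

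Genes of the ATF4 and CHOP response, to which Chac1 and Slc7a11 also belong, were set beside them. Ddit3, Trib3, Sesn2 and Vldlr, 4 of the 7 tested, were higher in both DCA libraries, where 18.6% of all genes were, but Sesn2 and Vldlr passed the 1 CPM minimum only through DCA, so the filter fixed their direction. Ddit3, which encodes CHOP, was at 8.96 and 9.89 CPM in vehicle and 25.2 and 43.7 CPM in DCA, with a log2 fold change of 1.87. Sesn2, a stress-induced regulator of growth signalling, was at 0.410 and 0 CPM in vehicle and 16.1 and 4.21 CPM in DCA. Like Chac1, Sesn2 had counts of 15 or fewer in both vehicle libraries. Trib3, encoding a pseudokinase induced by CHOP, was at 4.86 and 0 CPM in vehicle and 20.3 and 14.9 CPM in DCA (log2 fold change 2.85). The transcript of Atf4, which is controlled largely at translation, overlapped between treatments, at 60.3 and 80.8 CPM in vehicle and 51.4 and 74.8 CPM in DCA (log2 fold change -0.16).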

How the data were processed

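RNA-Seq libraries were made from total RNA with SMART-Seq HT cDNA and Nextera XT kits. Per the labels, reads were trimmed with cutadapt 1.9 and aligned to mm10 with HISAT2 2.2.1. The counting tool, annotation and strand setting are not given in the sources used here. The deposited table, whose name refers to FPKM, holds whole-number counts per gene and library, used as the authors deposited them. Libraries were grouped by their treatment labels. Counts were TMM-normalized over genes averaging 1 CPM or more, and tested with edgeR 4.0.16 (R 4.3.3; glmQLFit and glmQLFTest, two-sided, p-values adjusted by Benjamini-Hochberg). SEs come from log2(CPM + 1), and intervals from limma 3.58.1 with a trend, each for its gene alone and not adjusted for the number of genes. DESeq2 1.42.0, other scalings, filters and pseudocounts, quantile normalization, a replicate block and leaving out each library were alternatives. Scripts were tested on simulated data. A single gene tested alone by an exact permutation of 2 against 2 libraries cannot go below p = 0.333.

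The members and lists were chosen with earlier results of these data known. Named beside all 10 members were list genes with an unadjusted p under 0.05 and no overlap between treatments, the 2 such genes of smallest p per list and direction whether or not p was under 0.05, and Nfe2l1, Keap1, Bach1, Slc3a2, Chac2, Ddit3, Atf4 and Trib3 always. Vldlr and Txnrd3 are named because the filter fixed their direction. Gene positions and promoters are from RefSeq on GRCm38.p6. Transcript lengths are those of the longest GENCODE M21 transcript with a RefSeq match, in place of the planned RefSeq transcript. Totals per library limit precision: 3 counts correspond to 0.0125 CPM in DCA replicate 2 and 0.0820 to 0.115 CPM elsewhere.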

Additional observations from a re-analysis of the deposited data

How the results depend on the processing

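edgeR called 0 genes and 0 of the 10 members at an adjusted p of 0.05, with 478 of 11184 genes at an unadjusted p under 0.05. The number of genes called was 36 with no filter on low counts, 246 with DESeq2, and 0 to 20 with 1 library left out, the 20 without vehicle replicate 1. The number of members called was 1 with no filter (Hmox1, adjusted p = 0.0145), 3 with DESeq2 and 0 with 1 library left out. Members with an unadjusted p under 0.05 numbered 3 in the reported fit, 5 with DESeq2 and 5 with limma at a pseudocount of 1. Over all genes, 478 of 11184 had such a p in the reported fit, 1242 of 17706 with DESeq2 and 517 of 11184 with limma. Replicates of the 2 treatments share only a number (correlation of their deviations 0.0197), and with the replicate number as a block 5 members had an unadjusted p under 0.05, 0 genes were called and 450 had an unadjusted p under 0.05. Members with every DCA library above every vehicle library numbered 5 or 6 in alternatives with all 4 libraries, and 6 or 7 with 1 left out, where 3422 to 4200 of all genes were higher in this way against 2082 with all 4. The members' median log2 fold change was 0.38 to 0.77. Of 127 member log2 fold changes recomputed, 4 reversed, each among genes whose libraries overlap: Nfe2l2 to 0.15 and Srxn1 to -0.73 without vehicle replicate 2, Srxn1 to -0.18 without DCA replicate 2, and Gsr to 0.10 without vehicle replicate 1. The cause was not tested, and genes whose libraries do not overlap could hardly reverse when 1 library was left out. With 1 library left out, Nfe2l2 ranged from -0.39 to 0.15, Srxn1 from -0.73 to 1.87 and Gsr from -0.37 to 0.10. Chac1 ranged from 2.89 with quantile normalization to 6.61 with the block, apart from fits without a library, and neither it nor Slc7a11 was tested at a minimum of 5 CPM. With exon unions as lengths, 15 of 20 levels per kilobase stayed within 1 SD, and Hmox1 took place 3 in vehicle. Those of Nfe2l2 and Txnrd1 in both treatments and of Gclc in DCA moved further. In DCA, Txnrd1 went from 97.1 to 49.6 and no longer overlapped with Gsr, at 96.1. Gclc took place 5 there and Nfe2l2 place 6. The low counts of Chac1 and Slc7a11 and the 2 libraries per treatment limit what can be said of these genes.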
